A study of Mus musculus with 8 samples.

Results

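The response of CD8 T cells to a growing tumor in 17-month-old mice was read from 4 of the 8 arrays of the series, chosen by their labels: tumor-free and MC38-bearing wild-type (WT) mice, and tumor-free and MC38-bearing mice labelled PD-1KO (PD-1-/-). All mice were C57BL/6, and the other 4 arrays hold the same 4 conditions at 2 months of age. MC38 is a mouse colon adenocarcinoma line that grows in C57BL/6 hosts, and tumor-bearing animals were taken 9 days after it was inoculated. CD8 T cells were pulled out with CD8a beads from the draining lymph node of tumor-bearing mice and from peripheral lymph nodes of tumor-free mice, so the tumor and the source of the node cannot be told apart. Each group is 1 array, and how many animals each RNA came from is not given in the sources used here. The tumor-bearing array was set against the tumor-free array within each genotype, which gives 2 pairs at 17 months.

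Naive CD8 T cells recirculate through lymph nodes until a dendritic cell shows them their antigen, after which they divide quickly and take on effector genes such as granzymes. PD-1, encoded by Pdcd1, is an inhibitory receptor that activated T cells display and that blunts signalling from the antigen receptor; tumor-reactive cells that stay under stimulation carry it together with LAG-3, TIM-3 and TIGIT. In old mice the naive CD8 pool shrinks, and many remaining cells already bear memory or exhaustion genes before any challenge.

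Values are log2 of the array's processed spot signal minus that array's 75th percentile, so 0 is the 75th percentile of the array and a difference of 1 is 2-fold. That percentile lay between signals of 292 and 383 on the 8 arrays, lowest on the WT tumor-free array of 17-month-old mice. A probe was kept if it stood well above background on at least 2 of the 4 arrays of 17-month-old mice, which left 21374 features, 12940 of them with a gene symbol. Cd8b1, a chain of the CD8 co-receptor, was at 8.36 and 7.60 on the tumor-free and tumor-bearing WT arrays and 8.16 and 8.13 on the PD-1KO arrays. Of 16 core CD8 T cell genes 14 were measured, and 0 of the 14 were 2-fold apart in either pair. Over all features 4.89% were higher and 4.77% lower in WT, and 2.4% and 2.08% in PD-1KO, so a count of 0 is near the background. Of the 14, 13 were below 0 in WT (median difference -0.24) and 6 in PD-1KO (median 0.01). That WT median depended on the scaling, at -0.002 with quantile normalization and 0.04 with no scaling. Pdcd1 itself was measured on both arrays labelled PD-1KO, at 1.87 and 2.74 against -0.10 and 2.73 on the WT arrays. The sources used here do not place its probe inside or outside the deletion, so Pdcd1 gives no check of the genotype labels. The WT tumor-free array stood apart by hemoglobin RNA: Hba-a1 was at 4.19 there and at 0.55, -1.73 and -0.50 on the WT tumor-bearing, PD-1KO tumor-free and PD-1KO tumor-bearing arrays. Every WT difference below rests on that array, and the PD-1KO pair is what remains without it.

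In the WT pair 1045 features (4.89%) were at least 2-fold higher with tumor and 1020 (4.77%) at least 2-fold lower. The PD-1KO pair held fewer, 514 higher (2.4%) and 445 lower (2.08%). Both pairs shared 247 higher features (1.16%), which are 23.6% of the WT list and 48.1% of the PD-1KO list. They shared 94 lower features (0.44%), 9.22% and 21.1% of the same lists. In opposite directions, 30 features were higher in WT and lower in PD-1KO (0.14%) and 60 were lower in WT and higher in PD-1KO (0.281%). Across all features the differences of both pairs correlated at r = 0.15 (Spearman rho = 0.06), against r = 0.64 (rho = 0.60) between the WT and PD-1KO pairs of 2-month-old mice. On the 18644 features above background on all 8 arrays these were 0.14 and 0.71. The figures are descriptions across genes, which are not independent of each other, and the 2 pairs of an age share no array.

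**Figure D1:**
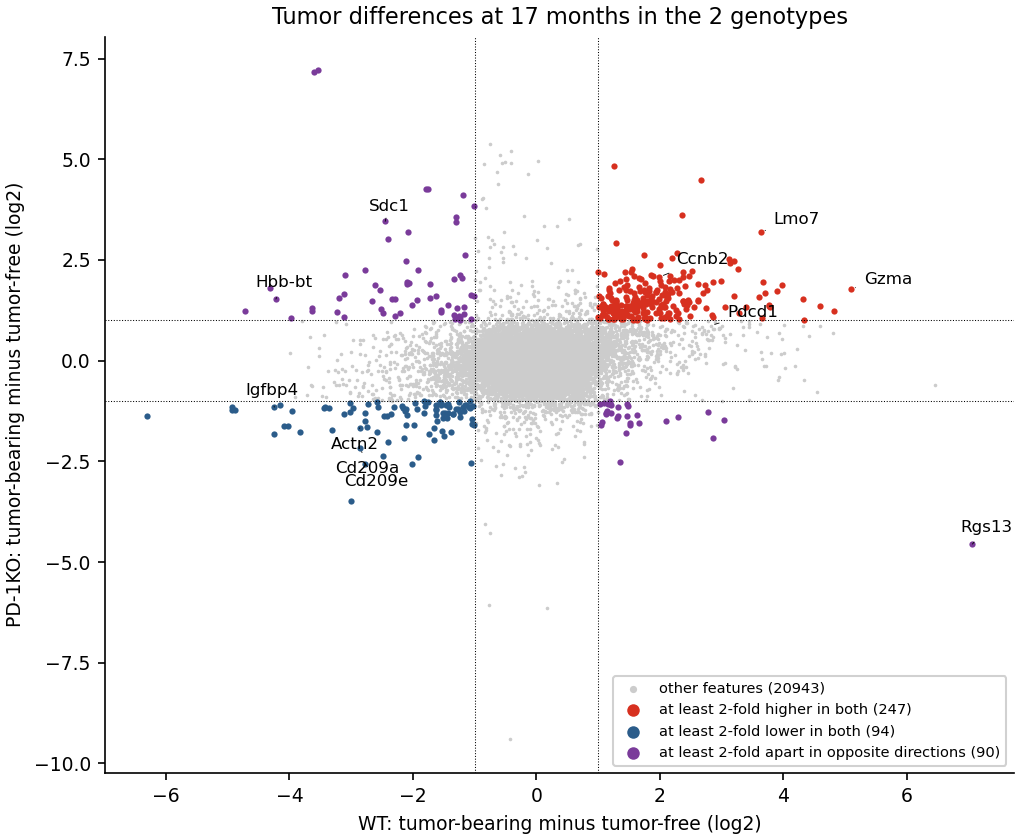
Tumor-bearing minus tumor-free log2 difference of each of the 21374 features in the WT pair (horizontal) and the PD-1KO pair (vertical) of 17-month-old mice, 1 point per feature, with dotted lines at 2-fold. The 247 red points are at least 2-fold higher in both pairs, the 94 blue points lower in both, and the 90 purple points apart in opposite directions, among them Rgs13 at 7.07 and -4.55.

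The limma fit over both pairs, with genotype as a term, passed 0 features at an adjusted p under 0.05. Its lowest adjusted p was 0.397, and 1440 features had an unadjusted p under 0.05, 825 of them higher with tumor. With 1 array per group the fit has 1 residual degree of freedom, how far a feature's pairs differ from each other, and 3.39 prior degrees of freedom from the spread over all features, which weigh more in each SE. The values below are given as levels and fold differences of these arrays. These p-values measure only the spread between arrays. That spread may be technical, and it also holds any difference between the genotypes in the tumor response.

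Cell division genes were higher with tumor in both genotypes. Of 35 cell cycle genes 34 were measured, and all 34 were higher with tumor in both pairs; 24 were at least 2-fold higher in each pair and 23 in both, against the 1.16% of all features. The median difference over the list was 1.59 in WT and 1.39 in PD-1KO, beside -0.04 and -0.03 over all features. By limma, 27 of the 34 had an unadjusted p under 0.05, against 1440 of all 21374 features, and the lowest adjusted p was 0.397.

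Ccnb2, the cyclin B2 that drives entry into mitosis with Cdk1, stood at 1.07 without and 3.07 with tumor on the WT arrays and at 1.43 and 3.51 on the PD-1KO arrays. Both tumor-bearing arrays were above both tumor-free arrays, and the mean difference was 2.04 (SE 0.22, limma adjusted p = 0.397). Ccnb2 was named for its large difference in both pairs, so that order follows largely from the choice. Ube2c, the ubiquitin-conjugating enzyme of the anaphase-promoting complex, followed the same order at 0.51, 2.53, 0.74 and 2.62. For cyclin A2, Ccna2, the levels were 0.33 and 2.73 in WT and 0.73 and 2.59 in PD-1KO. Ccnb1, cyclin B1, differed by 2.46 in WT and 1.51 in PD-1KO. The linker histone gene H1f5, packed into new chromatin as DNA is copied, went from 1.57 to 3.72 in WT and from 2.04 to 4.02 in PD-1KO.

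Sorted by role after their values were seen, the mitosis genes and the DNA replication genes of the list differed in size. Of 20 mitosis genes (kinases, kinetochore and spindle proteins) 19 were at least 2-fold higher in both pairs, with medians of 1.90 in WT and 1.53 in PD-1KO. Of 10 DNA replication genes 3 were, the nucleotide-supply enzymes Rrm2, Tk1 and Tyms, and the medians were 0.68 and 0.57. The helicase subunits Mcm2 to Mcm7 and the sliding clamp Pcna were higher by less than 2-fold in both pairs. The same ordering by size held in the 2-month-old mice, with medians of 2.04 and 3.53 for mitosis and 0.79 and 1.77 for replication.

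**Figure D2:**
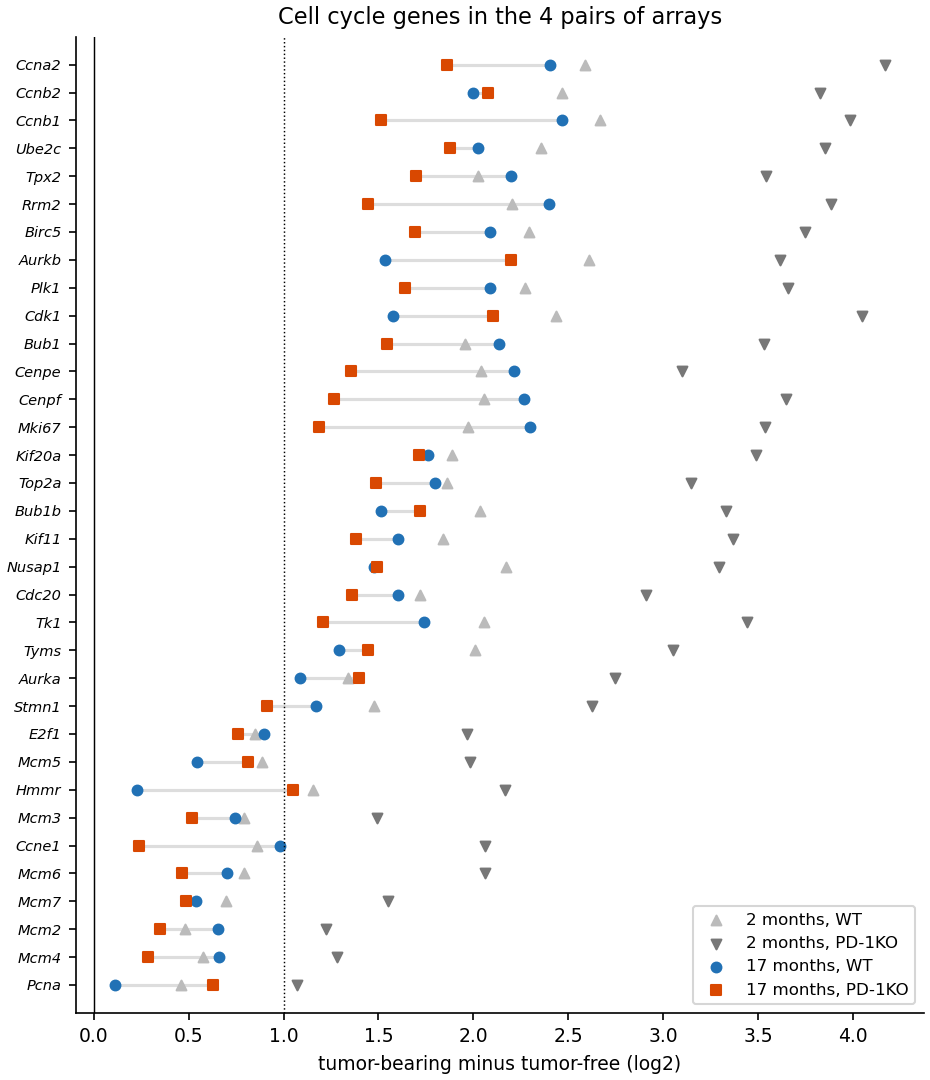
Tumor-bearing minus tumor-free log2 difference of the 34 measured cell cycle genes, sorted by their mean over both pairs at 17 months (circles WT, squares PD-1KO), with the 2-month pairs in grey and a dotted line at 2-fold. All 34 points of each 17-month pair lie above 0, and the 2-month PD-1KO pair lies farthest to the right, with a median of 3.31.

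The cell cycle homology region, TTTGAA, is a promoter element known from genes of the late cell cycle. It is shown for Ube2c and Ccnb2, named above, in the 250 bases before the RefSeq start (GRCm38.p6, 5' to 3' on the gene's strand), with each match on either strand in capitals. Ube2c lies on the plus strand at chr2:164769679-164769928, with a match on the opposite strand that begins at -29 from the start. Ccnb2 lies on the minus strand at chr9:70421555-70421804, with a match that begins at -167. No other motif searched overlaps either match.
Ube2c: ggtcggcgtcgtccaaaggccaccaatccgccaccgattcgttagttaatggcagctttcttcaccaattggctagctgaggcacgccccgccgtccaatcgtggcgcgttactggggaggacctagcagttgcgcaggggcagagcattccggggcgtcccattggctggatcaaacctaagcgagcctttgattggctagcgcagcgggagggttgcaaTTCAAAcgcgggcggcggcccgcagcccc
Ccnb2: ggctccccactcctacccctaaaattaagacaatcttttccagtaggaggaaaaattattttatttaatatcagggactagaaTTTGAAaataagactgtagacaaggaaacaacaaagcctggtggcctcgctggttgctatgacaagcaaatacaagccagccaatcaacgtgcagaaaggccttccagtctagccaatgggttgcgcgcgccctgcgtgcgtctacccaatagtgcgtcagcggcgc
RefSeq windows were held for 28 of the 35 list genes (29 windows), and 8 of the 29 (27.6%) had TTTGAA on either strand, against 16.0% of all 32851 windows. The Ccnb1 window holds no TTTGAA, which says only that these letters are not there. The E2F letters TTTGGCGC or TTTCCCGC were in 3 of the 29 (10.3%; 1.30% of all windows) and the CRE letters TGACGTCA in 2 (6.90%; 1.55%). Each of the other 6 motifs searched was in at most 1.

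Most of the 15 named features with the largest shared differences besides these were dim. Of the 247 shared higher features 155 were well above background on all 4 arrays, and 51 were above it on neither tumor-free array. Where a gene was not well above background on the lower side, a bound is given: the mean of the brighter side against the mean of the dimmer side, each dim array set to the higher of its own level and the lowest signal of that array that was well above background. Parm1, a mucin-like membrane protein, was measured on all 4 arrays at -3.25 and -0.12 in WT and -3.44 and -0.91 in PD-1KO. It was 1.16 and 0.59 higher in the 2-month WT and PD-1KO pairs. Tg, the thyroglobulin gene, was also measured throughout and differed by 2.01 in WT and 1.97 in PD-1KO.

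Lmo7, a LIM-domain protein of cell junctions, was seen only on the tumor-bearing arrays, at 0.11 in WT and -2.12 in PD-1KO, and was at least 5.81-fold higher there. It was not well above background on any array of 2-month-old mice. Igf2bp3, an RNA-binding protein of fetal and dividing cells, was at least 4.07-fold higher with tumor. Clspn, the checkpoint adaptor claspin, was at least 3.28-fold higher, the kinesin Kif18b at least 3.11-fold and the phosphodiesterase Enpp6 at least 3.41-fold. The transporter gene Abca13 was at least 1.67-fold and the deubiquitinase Usp51 at least 1.31-fold higher. Both bounds are under 2-fold, so the 2-fold call of Abca13 and Usp51 rests on levels not well above background. For the trefoil peptide Tff1, Popdc2, Tceal6 and Aunip the WT tumor-free array alone was not well above background, and their measured PD-1KO differences were 2.23, 2.09, 2.01 and 1.97.

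Of the 15 named genes lower in both pairs, 3 were lectins of the same family. Cd209a, Cd209d and Cd209e encode C-type lectins related to human DC-SIGN, which bind glycans on microbes and are known from dendritic cells and macrophages. Cd209e was at 1.16 without and -1.61 with tumor in WT and at 0.67 and -1.88 in PD-1KO. Cd209a went from 0.49 to -2.36 and from 0.31 to -1.85. Cd209d was 3.23 and 1.57 in WT and 3.27 and 1.60 in PD-1KO. For these 3 genes the tumor-free and tumor-bearing levels did not overlap. Their mean differences were -2.66 (SE 0.23), -2.51 (SE 0.28) and -1.66 (SE 0.22), with limma adjusted p = 0.397 for each. The genes were named for large differences in the same direction in both pairs, so the separation and the small SEs follow largely from that choice. They were also lower with tumor in both pairs of 2-month-old mice, where Cd209e differed by -1.58 in WT and -2.29 in PD-1KO. Other family members, looked up after these values were seen, differed less: Cd209f by -0.90 and -0.73, Cd209g by -0.42 and -0.96, and Cd209b by 0.27 and -0.17 in WT and PD-1KO.

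Of the 94 shared lower features 37 were well above background on all 4 arrays and 32 on neither tumor-bearing array. Actn2, an alpha-actinin of muscle, was bright on all 4, at 3.49 and 0.63 in WT and 3.58 and 1.92 in PD-1KO, while its 2-month differences were -0.04 and -0.51. Bpifb3, a lipid-binding protein of the BPI family, was at 0.67, -1.47, 1.30 and -0.61 on the same arrays. Its relative Bpifb2 was at least 2.89-fold lower with tumor, and Grm6, a metabotropic glutamate receptor gene, at least 2.81-fold lower. Gsta2, a glutathione transferase, was at least 3.46-fold lower, Ptprf at least 2.05-fold, Nr0b1 at least 1.40-fold and Dnajc28 at least 1.35-fold. For Nr0b1 and Dnajc28 the bound is under 2-fold, so their 2-fold call rests on levels not well above background. The amino acid transporter Slc6a19 was at least 15.9-fold lower in WT and differed by -1.81 in PD-1KO. Sorcs2 was likewise not well above background on the WT tumor-bearing array and differed by -1.61 in PD-1KO. Lrrc23 differed by -1.60 in PD-1KO and was at least 4.19-fold lower in WT. Cd226, an activating receptor that competes with TIGIT for its ligands, sat just past the threshold at -1.02 and -1.12.

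At the 2-fold threshold itself, Grb7 (1.00 and 1.09) and E2f2 (1.57 and 1.00) were just inside on the higher side, and Vat1l (1.19 and 0.99) and Fam72a (1.28 and 1.00) just outside, in WT and PD-1KO.

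At 2 months 441 features (2.06%) were at least 2-fold higher and 92 (0.43%) at least 2-fold lower in both pairs. Of the 247 shared higher features at 17 months 184 were among those 441 (74.5% of the first list and 41.7% of the second), with median differences of 1.70 and 2.99 in the young WT and PD-1KO pairs. Of the 94 shared lower features 10 were among the 92 (10.6% and 10.9%), with medians of -0.36 and -0.72. The age-by-tumor term of limma on all 8 arrays passed 0 features at an adjusted p under 0.05 (lowest 0.732; 803 unadjusted under 0.05), so none is called different between the ages. Ccl7, a monocyte-attracting chemokine, was 1.68 and 1.72 higher at 17 months and -0.38 and -1.26 at 2 months (age-by-tumor adjusted p = 0.974 by limma).

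Most interferon-stimulated genes were above 0 in both pairs, with the larger median in WT. Type I interferon switches on antiviral genes through an element known as ISRE. Of 31 such genes 28 were measured, and 15 were at least 2-fold higher with tumor in WT (4.89% of all features were). In PD-1KO 0 were (2.4% of all features), so the count of 0 is near that share. The list medians were 1.09 in WT and 0.46 in PD-1KO, and 27 and 26 of the 28 genes were above 0. For 26 of the 28 the WT difference was the larger of the 2, but the difference between the pairs was not tested, since each group is 1 array. The WT differences also spread more over all features, with an SD of 0.68 against 0.50 in PD-1KO. By limma over both pairs 15 had an unadjusted p under 0.05, against 1440 of all 21374 features, with a lowest adjusted p of 0.530.

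Both WT arrays lay at the ends of the range for most of these genes. Isg15, a ubiquitin-like antiviral modifier, was at 2.98 on the WT tumor-free array and at 4.86, 3.94 and 4.66 on the WT tumor-bearing, PD-1KO tumor-free and PD-1KO tumor-bearing arrays. Oas2, which makes the oligoadenylate that activates RNase L, was at -0.02, 2.29, 1.12 and 1.54 in the same order. The antiviral enzyme Rsad2 (viperin) was at -1.86, -0.06, -1.09 and -0.18. Ifi44 was at -2.77, 0.08, -1.80 and -1.28. Each of these 4 genes was lowest on the WT tumor-free array, as were 24 of the 28, against 21.0% of all features. On the WT tumor-bearing array 19 of the 28 were highest, against 30.0% of all features, Ifi44 and Oas2 among them. Summed over the list, the log2 level was 7.54 on the WT tumor-free array and 8.08 on the PD-1KO tumor-free array. It was 8.50 and 8.47 on the WT and PD-1KO tumor-bearing arrays, and 8.07 and 8.13 on the young WT arrays. In the young pairs 0 of the 28 were 2-fold apart, with medians of 0.02 and 0.27.

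For the genes named from this list, the 250-base windows before the start are shown for Isg15 and Rsad2, with matches to the ISRE on either strand in capitals. Isg15 lies on the minus strand at chr4:156200819-156201068 and holds 3 overlapping matches that begin at -78, -72 and -66 from the start. Rsad2 lies on the minus strand at chr12:26456453-26456702 with 1 match, on the opposite strand, that begins at -120. The Ifi44 window holds no ISRE match. No other motif searched overlaps the matches shown.
Isg15: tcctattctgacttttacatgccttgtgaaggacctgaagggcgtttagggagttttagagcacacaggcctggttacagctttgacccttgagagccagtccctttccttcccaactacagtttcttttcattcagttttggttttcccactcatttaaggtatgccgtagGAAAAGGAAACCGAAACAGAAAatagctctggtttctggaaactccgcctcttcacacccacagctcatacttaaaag
Rsad2: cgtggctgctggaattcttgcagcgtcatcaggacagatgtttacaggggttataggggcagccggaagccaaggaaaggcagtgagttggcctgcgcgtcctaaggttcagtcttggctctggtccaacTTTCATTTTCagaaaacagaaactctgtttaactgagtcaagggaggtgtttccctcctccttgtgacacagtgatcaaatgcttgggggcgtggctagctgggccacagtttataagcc
Windows were held for 21 of the 31 list genes (26 windows), and 10 of the 26 (38.5%) had the ISRE, against 2.98% of all windows. The AP-1 letters TGANTCA were in 5 (19.2%; 6.75% of all windows), the GAS letters TTCNNNGAA in 4 (15.4%; 7.02%) and TTTGAA in 2 (7.69%; 16.0%). E2F letters were in 1, and CACGTG (E-box), TGACGTCA, the kappa B motif and GCGTGGGCG or GCGGGGGCG (Egr) in 0. A match is a description of letters, not of binding.

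**Figure D3:**
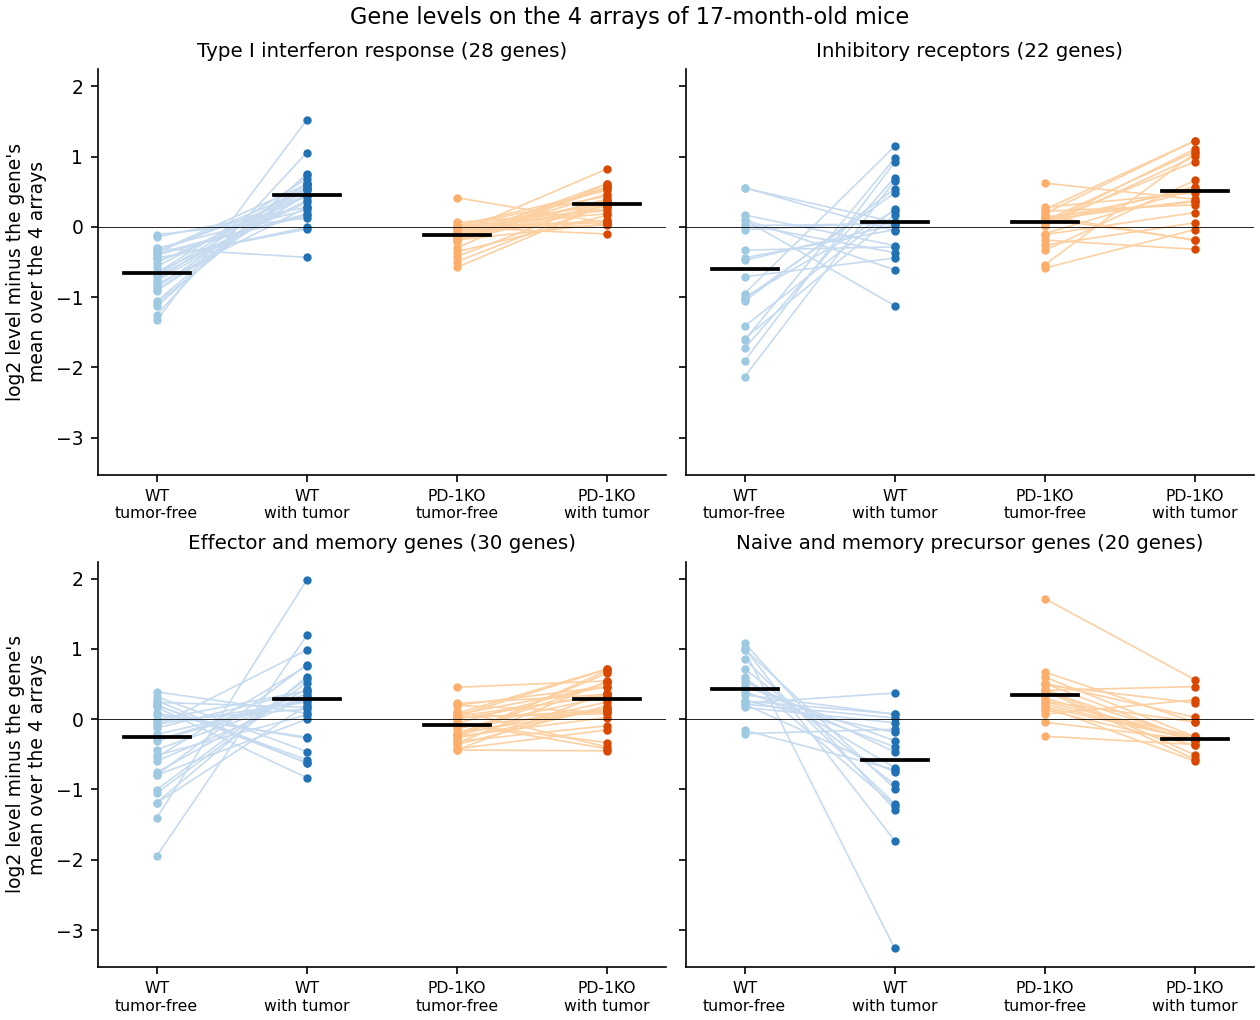
Log2 level of each gene minus its own mean over the 4 arrays of 17-month-old mice, for 4 gene lists, with lines joining the arrays of a pair and black bars at the list median. In the interferon and inhibitory receptor panels the median of the WT tumor-free array lies lowest; naive genes are lower with tumor in both pairs, more so in WT.

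The granzyme genes Gzma and Gzmb were at least 2-fold higher with tumor in both genotypes. Gzma, granzyme A, stood at 2.28 without and 7.39 with tumor in WT and at 2.84 and 4.63 in PD-1KO. Gzmb, granzyme B, was at 1.73 and 4.35 in WT and at 2.99 and 4.50 in PD-1KO. Both tumor-bearing arrays were above both tumor-free arrays for each. The mean differences were 3.45 (SE 0.82, limma adjusted p = 0.553) and 2.06 (SE 0.34, limma adjusted p = 0.398). Gzma and Gzmb were named from their list for large mean differences, so this order is no separate result. These were the only 2 of 19 measured cytotoxicity genes that were at least 2-fold higher in both pairs; 6 were higher and 1 lower in WT, and 2 higher in PD-1KO. Over all features 4.89% were higher and 4.77% lower in WT, and 2.4% were higher in PD-1KO. The list medians were 0.49 and 0.66, and 6 of the 19 genes in WT and 2 in PD-1KO were below 0. Gzmk, granzyme K, known from memory-type CD8 cells of old mice, went from 1.29 to 4.43 in WT and from 3.29 to 3.95 in PD-1KO. The chemokine gene Ccl3 was at 1.46, 4.15, 3.63 and 4.48. Ifng, the effector cytokine, differed by 1.31 in WT and 0.66 in PD-1KO, while perforin, Prf1, differed by 0.50 and 0.08.

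Inhibitory receptor and exhaustion genes had like medians in both pairs, 0.46 in WT and 0.49 in PD-1KO, with 16 and 18 of 22 genes above 0. Lag3 was at -0.07 and 2.72 in WT and at 2.31 and 3.29 in PD-1KO. Havcr2, encoding TIM-3, was at -0.43 and 2.00 in WT and at 1.31 and 2.30 in PD-1KO. Tigit was at -0.57, 1.09, 0.93 and 1.91, and Pdcd1, as given above, differed by 2.83 in WT and 0.87 in PD-1KO. In PD-1KO, Lag3 differed by 0.98 and Havcr2 by 0.98, at the 2-fold threshold, and the other Lag3 probe differed by 1.66. For these 4 genes the PD-1KO tumor-free array was nearer to the tumor-bearing arrays than the WT tumor-free array was. Of 22 measured genes of this list 10 were at least 2-fold higher and 1 lower in WT, and 3 were higher in PD-1KO. Over all features 4.89% were higher and 4.77% lower in WT, and 2.4% were higher in PD-1KO. The PD-1KO count became 5 with quantile normalization or the deposited values and 1 without scaling. The difference between the genotypes was not tested. Shared by both were Lgals3, galectin-3, at 1.60 and 1.59, and Rgs16, a brake on G protein signalling, at 1.76 and 1.03. Tox and Entpd1 (CD39), tied to exhausted cells, differed by 1.23 and 2.09 in WT and by 0.21 and 0.32 in PD-1KO. Ctla4 differed by 0.27 in WT and 1.07 in PD-1KO. Over the list, 14 of the 22 genes were lowest on the WT tumor-free array, against 21.0% of all features. By limma 7 had an unadjusted p under 0.05, against 1440 of all 21374 features, with a lowest adjusted p of 0.397.

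Of 30 measured effector and memory genes, 21 were above 0 in WT and 25 in PD-1KO, with medians of 0.59 and 0.33. At least 2-fold higher were 10 in WT, with 1 lower, and 0 in PD-1KO. Over all features 4.89% were higher and 4.77% lower in WT, and 2.4% were higher in PD-1KO, so the count of 0 is near that share. The WT difference was the larger in 19 of the 30, beside the wider spread of the WT pair given above. The difference between the genotypes was not tested. Klrg1, a receptor of terminal effector cells, was at -0.35 and 3.04 in WT and at 0.64 and 0.90 in PD-1KO. Cx3cr1, the fractalkine receptor of cytotoxic effectors, was at 0.35, 2.14, 1.76 and 1.89. The transcription factors Bhlhe40 and Rora differed by 1.58 and 1.56 in WT and by 0.95 and 0.47 in PD-1KO. The WT tumor-bearing array was the highest of the 4 for Klrg1 and Cx3cr1, while for Bhlhe40 the PD-1KO tumor-bearing array, at 4.10, was just above the WT one at 3.98.

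Genes of naive cells and memory precursors went the other way in both pairs. Of 20 measured genes 18 were lower with tumor in each pair, 9 at least 2-fold in WT and 1 in PD-1KO, with medians of -0.88 and -0.50. Over all features 4.77% in WT and 2.08% in PD-1KO were at least 2-fold lower. Dapl1, a gene of resting CD8 cells, was at 5.45 and 3.08 in WT and at 4.88 and 4.07 in PD-1KO. Lef1, a partner of TCF-1 in keeping cells naive, was at 6.08 and 5.08 in WT and at 5.98 and 5.04 in PD-1KO, so both tumor-bearing arrays lay about 2-fold under both tumor-free arrays. S1pr1, the receptor that lets T cells leave the node, differed by -1.26 and -0.68. Ccr7, which brings them in, differed by -1.64 and -0.30. Igfbp4 passed 2-fold in both, at least 19.0-fold lower in WT, where the tumor-bearing array was not well above background, and by -1.16 in PD-1KO. Tcf7 (TCF-1) differed by -0.22 in WT and by -0.46 in PD-1KO. The lowest adjusted p of the list was 0.531 by limma. By the same fit 10 genes had an unadjusted p under 0.05, against 1440 of all 21374 features. In the bulk RNA of an array, fewer cells of a kind and less RNA per cell cannot be told apart.

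Among cytokines and chemokines, 3 of 18 measured inflammation genes were at least 2-fold higher in both pairs, against 1.16% of all features: Ccl7, Il10 and Il21. That count was 1 with normexp and 0 of 12 with the deposited values. Over the list 6 genes were higher and 3 lower in WT and 4 higher in PD-1KO, against 4.89%, 4.77% and 2.4% of all features. Below 0 were 10 of 18 in WT and 5 in PD-1KO, and the medians were -0.27 and 0.51. Il10, an anti-inflammatory cytokine, was at -1.80 and -0.52 in WT and at 0.19 and 2.12 in PD-1KO. Il21, a helper cytokine for B cells and CD8 cells, was at -2.45, -1.19, -0.94 and 0.22. For both, the PD-1KO tumor-free array was above the WT tumor-free array, and the PD-1KO tumor-bearing array was the highest. Cdkn2a, the senescence-linked cell cycle inhibitor locus, differed by 1.90 and 0.89. The neutrophil chemokine Cxcl1 differed by -3.91 and -0.89.

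Of 27 antigen receptor signalling genes 0 were 2-fold apart in either pair, with medians of -0.08 and -0.06. Beside this and the counts below, 4.89% of all features were higher and 4.77% lower in WT. In PD-1KO these shares were 2.4% and 2.08%. A count of 0 or 1 in a list is near the background. Of 24 interferon gamma response genes 4 were higher in WT and 2 in PD-1KO; Ido1 passed in both but was not well above background on either WT array, so no fold is given there. The chemokine gene Cxcl9 was at 0.32 and 2.40 in WT and at 1.37 and 1.81 in PD-1KO. Of 29 immediate early genes 5 were lower and 1 higher in WT and 1 higher in PD-1KO, with medians of -0.36 and 0.18. The heat shock genes Hspa1a and Hspa1b differed by -2.25 and -2.19 in WT and by -0.08 and -0.70 in PD-1KO. Tnfsf4, the OX40 ligand, differed by 2.54 and 0.86. Of 24 heat shock genes 4 were lower and 1 higher in WT and 1 higher in PD-1KO. Of 17 costimulation genes 2 were higher and 2 lower in WT, and Cd226 alone was lower in PD-1KO. Of 23 chemokine receptor and trafficking genes 5 were higher and 8 lower in WT and 2 higher in PD-1KO. Of 17 NK receptor genes 3 were higher and 4 lower in WT and 3 higher in PD-1KO. Of 22 p53 and DNA damage genes 3 were higher and 1 lower in WT, and of 14 TGF-beta and tissue residence genes 2 were lower in WT, with 0 of either in PD-1KO. Of 24 glycolysis genes 1 was higher and 1 lower in WT and 0 in PD-1KO, and of 18 cholesterol synthesis genes 1 was lower in WT and 0 were 2-fold apart in PD-1KO.

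**Figure D4:**
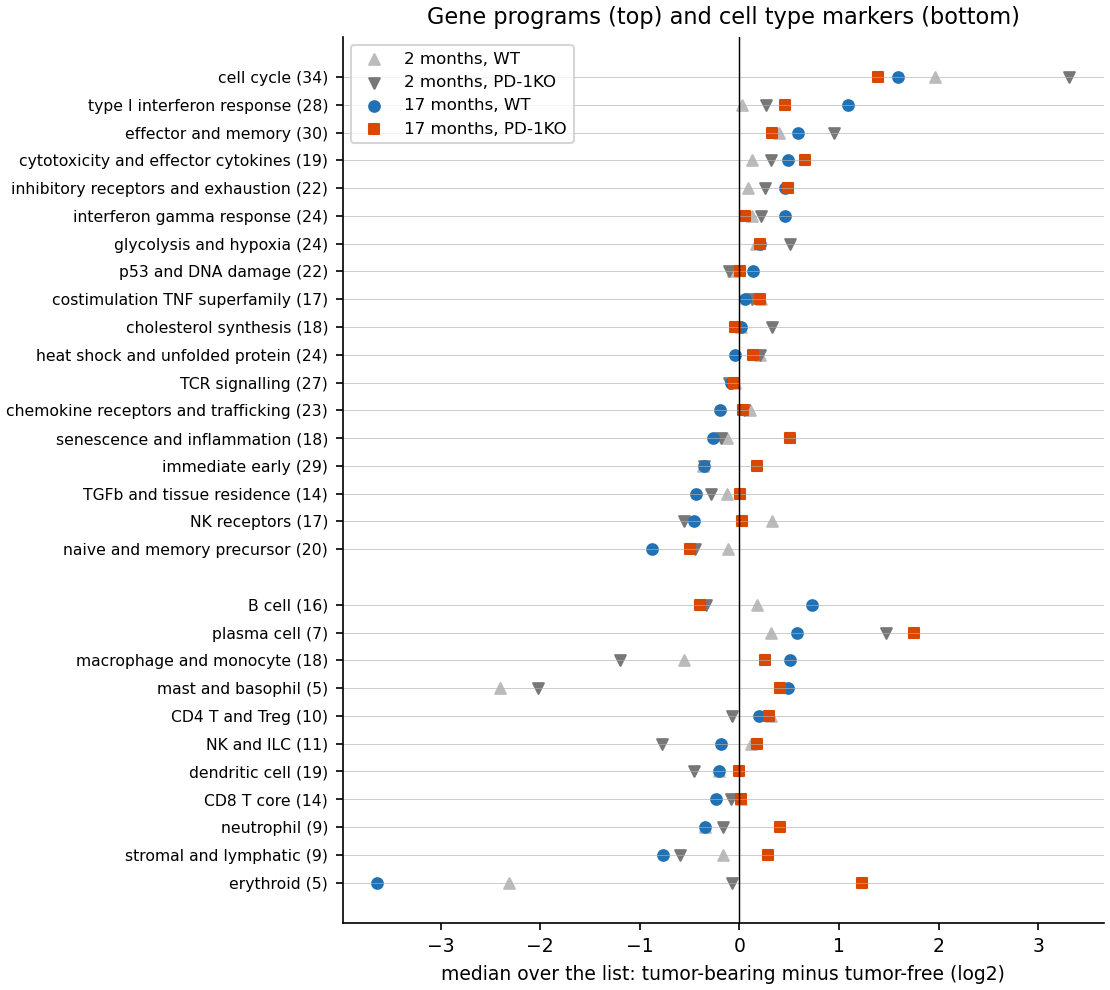
Median tumor-bearing minus tumor-free log2 difference of each gene list with at least 5 measured genes (number in brackets), programs above and cell type markers below, in the 17-month WT (circles) and PD-1KO (squares) pairs and the 2-month pairs (grey). Cell cycle lies to the right of the other programs in every pair, while plasma cell markers lie beyond it in the 17-month PD-1KO pair (1.75); B cell, neutrophil, stromal and erythroid markers are among the lists with medians of opposite sign in the 17-month pairs.

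Some markers of other cells were at least 2-fold apart in these comparisons, and several lists were unlike in the 2 genotypes, which was not tested. Beside the counts below, 4.89% of all features were higher and 4.77% lower in WT. In PD-1KO these shares were 2.4% and 2.08%, so a count of 0 there is near the background. Of 16 measured B cell genes 7 were at least 2-fold higher with tumor in WT and 0 in PD-1KO, with medians of 0.73 and -0.39 and summed log2 levels of 5.62 and 6.38 in WT and 5.94 and 5.70 in PD-1KO. Ms4a1, the CD20 gene, was at 2.10, 3.73, 2.77 and 2.25. Of 18 macrophage and monocyte genes 8 were higher in WT and 0 in PD-1KO (medians 0.51 and 0.26; summed levels 6.83 and 7.11, 6.69 and 6.79), among them the complement gene C1qa at 0.28, 1.68, 0.64 and 1.41. The partner gene C1qc was at 1.67, 3.16, 1.70 and 2.02. The macrophage medians at 2 months were -0.56 and -1.20. Of 7 plasma cell genes 3 were higher and 1 lower in WT and 4 were higher in PD-1KO (medians 0.58 and 1.75; summed levels 5.04 and 5.37, 4.75 and 5.89). Mzb1, an endoplasmic reticulum chaperone of antibody-making cells, was at 0.88, 2.43, 0.83 and 3.10, higher on both tumor-bearing arrays. Of 9 neutrophil genes 3 were higher and 4 lower in WT and 2 higher in PD-1KO (summed levels 5.03 and 3.05, 4.61 and 4.82). Only 5 of the 9 were well above background on all 4 arrays. Among those 1 was higher and 2 lower in WT, and 0 were 2-fold apart in PD-1KO. Of the markers fixed for these cells, Pax5 of B cells, Cd163 and Vsig4 of macrophages and Tnfrsf17 of plasma cells were well above background on 0 of the 4 arrays, and Ighm, Ighd, Igkc and Ly6g had no probe under their symbol. Of 19 dendritic cell genes 2 were higher and 4 lower in WT and 1 lower in PD-1KO, of 10 CD4 and regulatory T cell genes 2 were higher in WT and 1 in PD-1KO, and of 11 NK and innate lymphoid genes 2 were higher and 3 lower in WT and 2 higher and 1 lower in PD-1KO. Of 5 mast cell and basophil genes 0 were 2-fold apart, with medians of 0.49 and 0.40 against -2.40 and -2.03 at 2 months. Of 9 stromal genes 1 was higher and 3 lower in WT, and of 4 gamma delta and innate T cell genes 2 were lower in WT and 1 in PD-1KO. Of 10 keratinocyte and salivary markers 8 (Muc19 with no probe under its symbol) and of 8 platelet markers 6 were above background on no array, while 3 of 9 epithelial and tumor line markers were measured, 1 of them lower in WT and 1 higher in PD-1KO. The part of these cells in the interferon, effector, lectin and cytokine values above was not tested.

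The genes that parted most by genotype, named for at least 2-fold differences in opposite directions, included several known from such cells. Rgs13, a regulator of G protein signalling known from germinal centre B cells, was seen on the WT tumor-bearing array at 1.34 and on the PD-1KO tumor-free array at -1.15. On the other 2 arrays it was not well above background, so it was at least 29.1-fold higher with tumor in WT and at least 6.13-fold lower in PD-1KO. Mybl1, a MYB-family transcription factor chosen after its values were seen, was likewise not above background on the WT tumor-free array. With tumor in WT it was at least 6.33-fold higher, and in PD-1KO it differed by 0.12. Sdc1, the plasma cell marker CD138, was at least 1.14-fold lower with tumor in WT and at least 2.38-fold higher in PD-1KO. The WT bound is under 2-fold, so the 2-fold call of Sdc1 in WT rests on a level not well above background. Klrb1c, which encodes the NK1.1 receptor, was measured on all 4 arrays at 0.58, -1.15, -1.44 and 0.48. Its 3 probes differed by -1.75 to -1.13 in WT and by 0.82 to 1.91 in PD-1KO.

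The hemoglobin gene Hbb-bt, like Hba-a1 above, was highest on the WT tumor-free array, so it is no separate sign that this array stood apart. Hbb-bt was at 3.26 and -0.96 in WT and at -3.41 and -1.88 in PD-1KO, and of 5 measured erythroid genes 3 were at least 2-fold lower in WT and 3 at least 2-fold higher in PD-1KO. The summed erythroid levels were 5.58, 2.32, 1.53 and 2.09, in the same order of arrays. Wnt10a, a Wnt ligand, was at 0.67, -2.44, -1.58 and 0.09, and Fstl1, a secreted glycoprotein, at -0.67, -2.39, -3.04 and -1.48. For these and for Avil, Snrpn and Cdhr1 the WT tumor-free and the PD-1KO tumor-bearing arrays were the higher ones. All of them, and Hbb-bt, were named for being lower with tumor in WT and higher in PD-1KO, so that order follows from the choice.

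**Figure D5:**
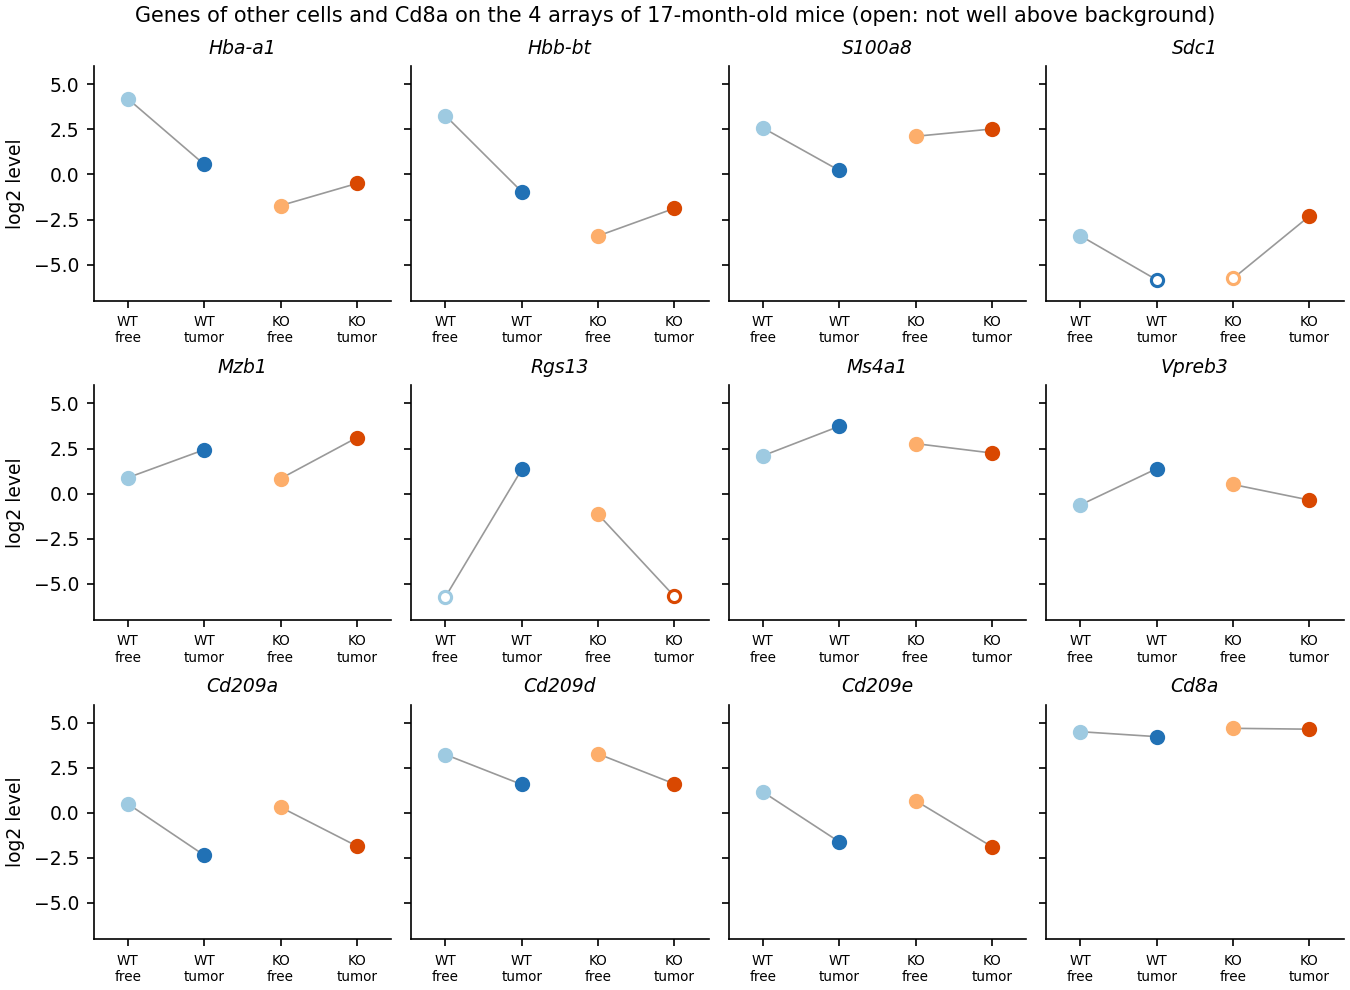
Log2 level of 11 genes known from other cells and of Cd8a on the 4 arrays of 17-month-old mice, with lines joining the arrays of a pair and open symbols where the probe was not well above background; all panels share 1 scale. The Cd209 genes and Mzb1 shift the same way in both pairs, whereas Hba-a1, Hbb-bt, Sdc1, Rgs13 and Vpreb3 shift in opposite directions, and Cd8a lies between 4.22 and 4.68 on every array. For Sdc1 and Rgs13 the lower array of each pair was not well above background.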

How the data were processed

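RNA of lymph node CD8 T cells was hybridised to 8 one-colour Agilent arrays on 1 slide. Per the file headers, the processed signal is a background-subtracted intensity of 1 array, which Feature Extraction 11.0.1.1 wrote without bringing arrays to a common scale; the deposited spot flags are 0 or 1 (unit other). The authors' deposited value table is in log2, holds 23971 probes with a median of 9.10327 in all 8 columns, and how it was scaled is not given in the sources used here.

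From the log2 signal each array's 75th percentile was taken off. An outlier flag removed 12 of 56605 probes that are no controls; RefSeq accessions named 33000 probes, and 23593 kept the name in the files. The probe of highest mean over the 4 arrays stood for a gene. Pairs were compared by a 2-fold rule with no test, and by limma 3.58.1 in R 4.3.3 (genotype and tumor on 4 arrays; age by tumor and age by genotype on 8), with the Benjamini-Hochberg adjustment across the whole table. Plots and counts were made with Python 3.11.15. The steps were tested on simulated data.

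Genes were named by rule: the 15 largest shared differences each way and up to 8 in each opposite direction, by the smaller pair difference, among plain gene names above background on the higher side; up to 4 members of each of 18 program and 15 marker lists; and Pdcd1, Cd8a and Cd8b1. No gene passed the age-by-tumor test, so none was named by it. Further members of the lists are given where a sentence needed them, and these, Mybl1, Cd209b, Cd209f and Cd209g were picked with their values in view. A few genes are not reported here. The comparison, the lists and the rule were chosen with earlier results of these data known. Alternatives were quantile or no scaling, normexp (offset 50), the authors' values, other filters, the mean of a gene's probes, other models, and each array left out.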

Additional observations from a re-analysis of the deposited data

Results flagged for a closer look

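The 12 genes below were named because their tumor differences were at least 2-fold in opposite directions in the 2 genotypes at 17 months. The opposite signs are therefore the naming rule and not a finding. Over all features, 30 (0.14%) were higher in WT and lower in PD-1KO, and 60 (0.281%) were the reverse. With 1 array per group the difference between genotypes was not tested. As the WT minus the PD-1KO log2 difference, it was 11.6 for Rgs13, 2.39 for Nxnl1, 2.53 for Gpr153 and 2.58 for Olfr665, which were higher with tumor in WT. It was -5.91 for Sdc1, -5.42 for Avil, -5.02 for Snrpn, -3.64 for Klrb1c, -4.77 for Wnt10a, -3.29 for Fstl1, -4.74 for Cdhr1 and -5.75 for Hbb-bt, which were lower with tumor in WT. Nxnl1, Klrb1c, Wnt10a, Fstl1 and Hbb-bt were well above background on all 4 arrays; for the other 7 at least 1 array was at background, so the size is that of the measured values only.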

How the results depend on the processing

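Every shared higher or lower feature measured again kept its direction in both pairs under quantile normalization, no scaling, normexp, no filter and averaging over probes of a gene. The deposited values kept 139 of 140 and 36 of 36, and the stricter filter 155 of 156 and 37 of 37. The counts moved more. With normexp, 98 features were higher and 20 lower in both pairs, 880 were apart in WT, 330 in PD-1KO and 17 in opposite directions. The deposited values gave 150, 37, 1216, 474 and 29, over fewer probes, and the filter for all 4 arrays 155, 37, 1359, 541 and 41. With no filter on dim probes 305 were lower in both, 4984 apart in WT, 2955 in PD-1KO and 291 in opposite directions. The correlation of the pairs was 0.0887 with no filter and 0.129 with the strict one. Without scaling, the medians of all features were 0.24 in WT and -0.13 in PD-1KO, the splits of higher against lower features were 1677 to 603 and 428 to 610, opposite features 88 to 44, and limma passed 322 features, 231 of them higher with tumor; the cause was not tested. Splits in both pairs were 98 to 20 with normexp, 150 to 37 with deposited values, 347 to 305 with no filter and 155 to 37 with the strict filter, and in PD-1KO 236 to 94 with normexp. Opposite features split 3 to 14 with normexp and 13 to 16 with deposited values. The cell cycle count in both pairs ran from 18 to 25, the interferon count in WT from 13 to 20 and the naive count in WT from 7 to 9, alternatives added after the data were seen. The WT median of core CD8 genes (-0.24) turned to 0.04 without scaling, -0.002 with quantile normalization and 0.001 with the deposited values. It was -0.19 with normexp and -0.21 with the mean of a gene's probes. Under every other model, and with each of the 8 arrays left out, limma passed 0 features (from 0 to 0) for tumor and for age by tumor; unadjusted counts ran from 356 to 4281. Leaving out an aged array leaves 1 pair, with the spread taken from the young arrays. No paired analysis was possible because replicate numbers only follow accession order, with 1 array per group; genotype is a term of the fit. The number of arrays limits precision, and 51 higher and 32 lower shared features rest on 1 side above background.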
